A study of Homo sapiens with 5 samples.

Results

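The genes described here are 10 members of the BCL2 family, which sets the threshold for cell death through the mitochondria. They were taken by name (BCL2, BCL2L1, BCL2L2, MCL1, BCL2L11, PMAIP1, BBC3, BID, BAX and BAK1) after the Ensembl IDs in the files were matched to GENCODE 29, and all 10 were found among the 30631 genes listed. The samples were 3 libraries of COV434 cells given 3-nitropropanoic acid (3-NP, an irreversible inhibitor of succinate dehydrogenase) and 2 libraries of COV434 control cells. COV434 is a cell line that the labels describe as a human ovarian granulosa tumour cell. The labels give neither a dose, nor a duration, nor what the control cells received, and in 4 of the 5 libraries the cell line field holds a running number in place of COV434 although each title names COV434. The labels do not say whether the libraries are of separate cultures, and a p-value here therefore reflects the spread among these 5 libraries, part or all of which may be technical.

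Proteins of this family share short BCL2 homology (BH) regions and fall into 3 classes. The pro-survival members, here BCL2, BCL-XL (BCL2L1), BCL-W (BCL2L2) and MCL1, hold the effectors BAX and BAK (BAK1) in check. BAX and BAK, once freed, form pores in the mitochondrial outer membrane through which cytochrome c leaves to activate caspases. The BH3-only members, here BIM (BCL2L11), NOXA (PMAIP1), PUMA (BBC3) and BID, bind the groove of the pro-survival proteins or the effectors. BIM and PUMA bind every pro-survival member, whereas NOXA prefers MCL1. In the ovary, apoptosis of granulosa cells accompanies the loss of follicles.

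Levels are given in FPKM, read numbers corrected for the summed length of a gene's annotated exons and the size of the library. A gene whose transcripts are shorter than this length is understated. Orders, sums and ratios across genes are therefore approximate, which bears less on 1 gene compared between groups. The depth worked out from the values was 18653000 to 18883000 reads in the 3-NP libraries and 17838000 to 18753000 reads in the control libraries. Read numbers of single genes are given rounded to whole reads. Of 10 granulosa cell markers 5 were high enough to be tested, among them the transcription factors NR5A1 and FOXL2, while the FSH receptor FSHR, aromatase CYP19A1 and inhibin INHA stayed under 1 FPKM in every library. The summed level of these markers was 23.1 to 25.6 FPKM in 3-NP libraries, against 36.6 and 40.8 FPKM in control libraries, and its part in the results below was not tested. NR5A1 was the largest term (mean 12.8 FPKM in 3-NP and 23.4 FPKM in control cells), and it and FOXL2 were called lower. INHBA, lower in mean, was not called. GATA4 (mean 2.65 against 1.81 FPKM) and AMH (1.17 against 1.03 FPKM) were higher in mean in 3-NP cells and were not called. Of 12 markers of other cell types 9 were found, of which the collagen gene COL1A1 stood at 91.6 to 173 FPKM in 3-NP libraries and 606 and 619 FPKM in control libraries. The other 8 summed to 1.83 to 2.13 FPKM in 3-NP libraries and 1.22 and 1.5 FPKM in control libraries. In bulk RNA a change in the share of cells that express a gene cannot be told apart from a change in RNA per cell.

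In cells given 3-NP, transcripts of MCL1, of the BH3-only genes PMAIP1, BBC3 and BCL2L11 and of the effector BAK1 rose, and those of BCL2L1 and of the effector BAX fell. The family thus changed in both directions within its pro-survival and within its effector class. Of the 10 members 9 were tested, those with at least 1 FPKM in at least 2 libraries, and 7 passed an adjusted p of 0.05 in limma's test across 11858 genes, 5 of them higher and 2 lower. In the same test 40.8% of all genes passed, 15.5% higher and 25.2% lower. The groups did not overlap in 9 members, nor in 64.2% of all genes tested. BCL2L11 passed the filter only through the 3-NP libraries, so it could enter the test only by being higher there. At least 2-fold calls (a log2 fold change of 1 or more in size) were made for 5 members and for 12.4% of all genes.

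**Figure D1:**
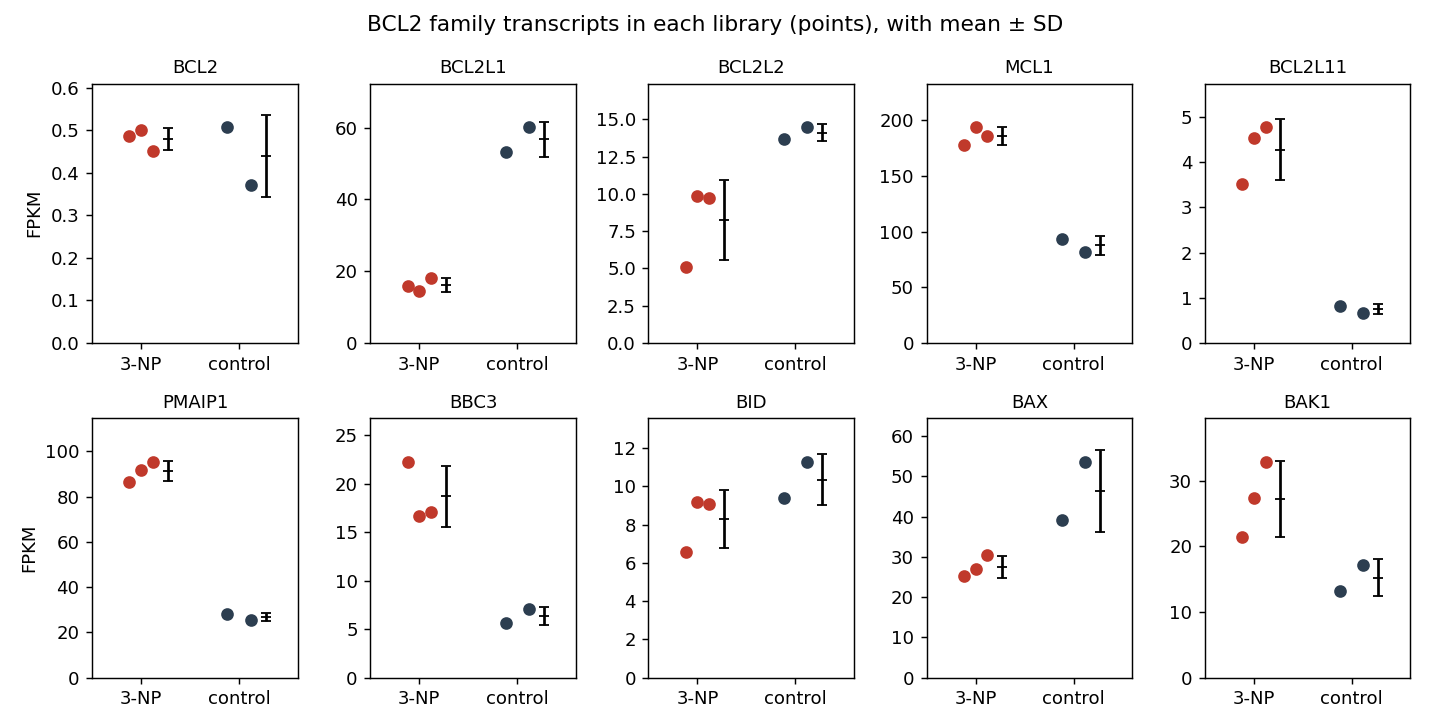
FPKM of the 10 members (vertical axes, each from 0) in 3 libraries of 3-NP cells (red points) and 2 of control cells (dark points), with the mean ± SD beside each group. The groups overlap only in BCL2, and BCL2L1 shows 14.4 to 18.1 FPKM in 3-NP cells against 53.3 and 60.2 FPKM in control cells.

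The promoter windows of the changed members are shown because these transcripts moved as 2 opposite sets. RefSeq windows (GRCh38.p14, 250 bases before to 50 after a start) were found for 8 of the 10 members, and the one nearest the gene's outer end was taken. No window was found for MCL1, which rose, or for BCL2L2. The rest of the set that rose lies at chr18:59899746-59900045 (+) for PMAIP1, chr2:111120664-111120963 (+) for BCL2L11, chr19:47232618-47232917 (-) for BBC3 and chr6:33580227-33580526 (-) for BAK1. The set that fell lies at chr20:31723914-31724213 (-) for BCL2L1 and chr19:48954625-48954924 (+) for BAX. Sequences run 5′ to 3′ on the gene's strand, and capitals mark matches on either strand to the E-box CACGTG, the AP-1 site TGANTCA, the cyclic AMP response element core TGACGT or the GC box GGGCGG.
PMAIP1: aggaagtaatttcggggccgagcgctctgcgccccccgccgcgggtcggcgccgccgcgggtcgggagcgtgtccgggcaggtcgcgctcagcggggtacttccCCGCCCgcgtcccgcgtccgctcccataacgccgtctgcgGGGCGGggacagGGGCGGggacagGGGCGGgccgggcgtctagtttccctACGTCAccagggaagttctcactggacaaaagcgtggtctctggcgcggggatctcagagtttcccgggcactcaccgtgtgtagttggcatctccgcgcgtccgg
BCL2L11: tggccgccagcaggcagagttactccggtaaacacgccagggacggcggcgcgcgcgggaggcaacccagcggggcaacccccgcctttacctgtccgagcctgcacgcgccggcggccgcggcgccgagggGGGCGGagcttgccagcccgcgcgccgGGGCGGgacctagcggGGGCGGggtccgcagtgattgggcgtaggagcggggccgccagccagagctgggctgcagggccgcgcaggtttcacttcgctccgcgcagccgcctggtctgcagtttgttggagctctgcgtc
BBC3: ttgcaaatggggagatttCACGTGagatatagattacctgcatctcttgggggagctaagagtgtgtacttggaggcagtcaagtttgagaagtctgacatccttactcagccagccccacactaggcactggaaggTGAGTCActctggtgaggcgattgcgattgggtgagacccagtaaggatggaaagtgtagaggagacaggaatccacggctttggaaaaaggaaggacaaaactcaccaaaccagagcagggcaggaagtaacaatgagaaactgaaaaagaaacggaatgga
BAK1: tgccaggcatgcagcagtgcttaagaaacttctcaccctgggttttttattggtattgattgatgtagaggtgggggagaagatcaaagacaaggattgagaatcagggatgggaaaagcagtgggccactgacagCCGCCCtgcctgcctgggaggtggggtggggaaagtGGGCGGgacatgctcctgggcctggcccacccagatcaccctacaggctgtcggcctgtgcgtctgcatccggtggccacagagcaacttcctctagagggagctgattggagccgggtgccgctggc
BCL2L1: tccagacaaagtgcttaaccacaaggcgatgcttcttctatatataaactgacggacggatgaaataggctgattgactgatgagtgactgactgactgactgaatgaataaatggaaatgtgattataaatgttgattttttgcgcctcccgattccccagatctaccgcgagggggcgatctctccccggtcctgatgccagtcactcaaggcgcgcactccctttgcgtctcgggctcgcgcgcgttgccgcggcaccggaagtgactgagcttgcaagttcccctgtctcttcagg
BAX: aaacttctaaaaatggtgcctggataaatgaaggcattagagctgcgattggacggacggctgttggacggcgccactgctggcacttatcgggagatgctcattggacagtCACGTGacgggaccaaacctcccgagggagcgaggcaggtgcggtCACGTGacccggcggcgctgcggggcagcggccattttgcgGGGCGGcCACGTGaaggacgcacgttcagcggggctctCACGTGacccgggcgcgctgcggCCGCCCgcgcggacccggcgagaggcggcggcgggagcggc

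The BAX window held 4 E-boxes and 2 GC boxes. Of 35116 windows of this length in the table, 7.26% hold an E-box, and 5 windows (0.0142%) hold 4 or more. The cutoff of 4 is the count of the BAX window itself, which is among those 5. No such share was worked out for the other motifs, so it does not set BAX apart from the other windows shown. The PMAIP1 window held 4 GC boxes and 1 cyclic AMP response element core, motifs found in 45% and 7.98% of windows. BBC3 had 1 E-box and 1 AP-1 site, and an AP-1 site is in 7.71% of windows. The BCL2L11 window held 3 GC boxes and the BAK1 window 2, and none of the 4 motifs was in the BCL2L1 window. Of the 4 windows shown of the set that rose, 3 thus held a GC box, as did that of BAX in the set that fell, and these matches describe letters, not binding.

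Among the pro-survival genes, MCL1 (chromosome 1, positions 150574551 to 150579738, GRCh38), whose protein is short-lived and is continually resynthesised, was the most abundant. It stood at 178, 194 and 186 FPKM in 3-NP replicates 1 to 3, against 93.7 and 81.4 FPKM in the controls. Each 3-NP library lay well above both controls, and MCL1 rose 2.12-fold by the ratio of means (log2 fold change 1.08 ± 0.15 SE, limma adjusted p = 0.00183). BCL2L1 (chromosome 20, positions 31664452 to 31723989), which encodes BCL-XL, moved the other way. Its level was 15.9, 14.4 and 18.1 FPKM in 3-NP libraries and 53.3 and 60.2 FPKM in control libraries. The control mean was thus 3.52 times the 3-NP mean (log2 fold change −1.76 ± 0.15 SE, limma adjusted p = 0.00045), and this was the fall of largest size among the tested members. Both genes also give rise, by alternative splicing, to short forms that promote death, and the gene-level values do not separate these from the long forms.

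BCL2L2 (chromosome 14, positions 23298790 to 23311759), which encodes BCL-W, stood at 5.12, 9.87 and 9.71 FPKM in 3-NP libraries, against 13.7 and 14.5 FPKM in control libraries. All 3-NP values lay below the controls, but 3-NP replicate 1 was far below the other 3-NP libraries, and the difference missed the threshold (log2 fold change −0.76 ± 0.26 SE, limma adjusted p = 0.051). It passed when any single 3-NP library was left out, with adjusted p = 0.0243 without 3-NP replicate 1, and not when either control was left out (0.158 and 0.18). BCL2 itself (chromosome 18, positions 63123346 to 63320128) was barely expressed, at 0.486, 0.501 and 0.451 FPKM in 3-NP libraries and 0.508 and 0.372 FPKM in control libraries. These values rest on 100 to 110 reads per 3-NP library and on 112 and 78 reads in the controls. The groups overlapped and BCL2 stayed under the filter. The groups differed by 0.04 on the log2 scale, with an adjusted p of 0.806 by limma in a fit with no filter.

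Of the BH3-only genes, PMAIP1 (chromosome 18, positions 59899948 to 59904306), which encodes NOXA, the partner of MCL1, had the largest rise on the log2 scale among the tested members. It stood at 86.7, 91.9 and 95.5 FPKM in 3-NP libraries and 28.1 and 25.4 FPKM in control libraries. The 3 treated libraries lay within 10 FPKM of each other and PMAIP1 rose 3.42-fold (log2 fold change 1.74 ± 0.14 SE, limma adjusted p = 0.000345). BBC3 (chromosome 19, positions 47220822 to 47232766), which encodes PUMA, was at 22.3, 16.7 and 17.1 FPKM in 3-NP libraries, against 5.67 and 7.05 FPKM in the controls. It rose 2.94-fold, with 3-NP replicate 1 highest (log2 fold change 1.42 ± 0.18 SE, limma adjusted p = 0.0014). BCL2L11 (chromosome 2, positions 111119378 to 111168447), which encodes BIM, was low in every library, with 3.52, 4.53 and 4.78 FPKM in 3-NP cells and 0.825 and 0.665 FPKM in control cells. Its ratio of means, 5.74, exceeded that of the other members, while its log2 fold change of 1.59 ± 0.16 SE (limma adjusted p = 0.000736) is held down by the pseudocount of 1 and came to 2.37 with a pseudocount of 0.1 and 2.51 in a fit on reads. Exons of BCL2L11 overlap the noncoding gene MIR4435-2HG on the opposite strand, which stood at 7.33 to 7.44 FPKM in 3-NP libraries and 5.85 and 5.76 FPKM in control libraries. The library kit was strand-specific, but the strand setting of the counting is not given in the sources used here.

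BID (chromosome 22, positions 17734138 to 17774770), which caspase 8 cleaves to link death receptors to mitochondria, was the BH3-only member that did not pass. It stood at 6.55, 9.21 and 9.1 FPKM in 3-NP libraries and 9.42 and 11.3 FPKM in control libraries. The highest 3-NP library lay just under the lower control (log2 fold change −0.30 ± 0.18 SE, limma adjusted p = 0.223).

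The 2 effectors moved in opposite directions. BAX (chromosome 19, positions 48954815 to 48961798) was at 25.2, 26.9 and 30.6 FPKM in 3-NP libraries and 39.2 and 53.7 FPKM in control libraries. All 3 treated libraries lay below both controls, which themselves differed widely, and BAX fell by 0.72 ± 0.18 (SE) on the log2 scale (limma adjusted p = 0.0163). BAK1 (chromosome 6, positions 33572547 to 33580293) was at 21.4, 27.4 and 32.9 FPKM in 3-NP libraries, against 13.2 and 17.2 FPKM in the controls. It rose 1.79-fold (log2 fold change 0.79 ± 0.21 SE, limma adjusted p = 0.0207). These were the calls that depended on single libraries and on the filter. BAX had adjusted p = 0.138 without control replicate 2 and BAK1 0.155 without control replicate 1, and without a low-value filter the values were 0.054 and 0.0749. A processed BAK1 pseudogene, BAK1P1, stood at 0.759 to 1.75 FPKM in 3-NP libraries and 0.252 and 1.06 FPKM in control libraries, so that reads shared with it could be a small part of the BAK1 value.

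**Figure D2:**
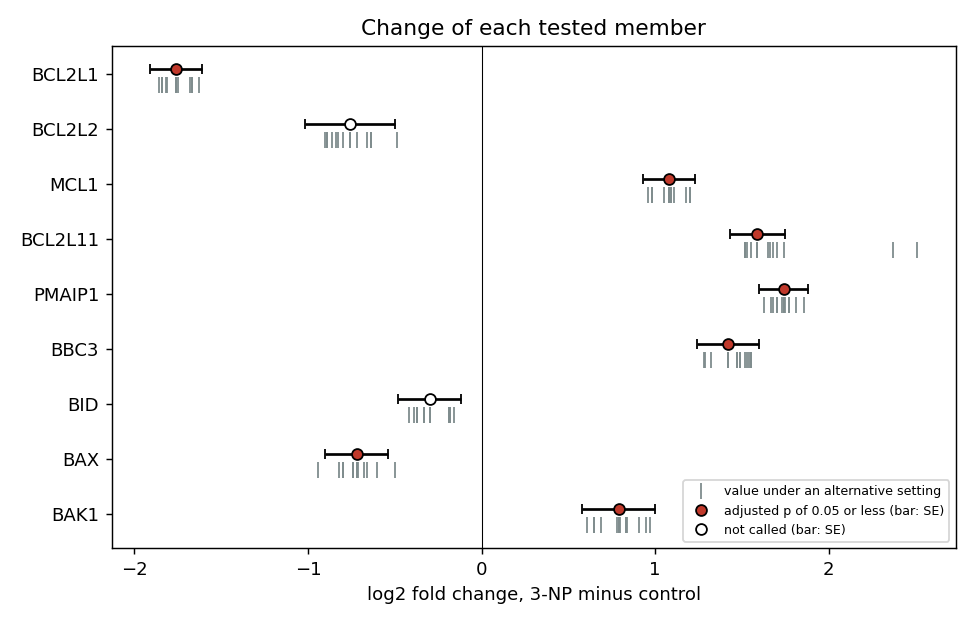
Fitted log2 fold change of the 9 tested members (horizontal axis, 3-NP minus control), with its SE. Filled points passed an adjusted p of 0.05 and grey ticks give the value under each alternative setting, which for BCL2L11 reached 2.51 and for the other members stayed on the same side of 0 as the main value.

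The order of the levels within the family differed between the groups. In 3-NP cells MCL1 (186 ± 8.33 FPKM, SD, n = 3) was followed by PMAIP1 (91.4 ± 4.4 FPKM), and then came BAX, BAK1, BBC3 and BCL2L1 at 27.6 ± 2.8, 27.2 ± 5.75, 18.7 ± 3.16 and 16.1 ± 1.88 FPKM, each with a range that overlapped its neighbour's. BID and BCL2L2 (8.29 ± 1.51 and 8.23 ± 2.7 FPKM) could not be ordered either, and BCL2L11 and BCL2 came last. In control cells MCL1 (87.5 ± 8.69 FPKM, SD, n = 2) was followed by BCL2L1 and BAX (56.8 ± 4.91 and 46.5 ± 10.3 FPKM), whose ranges overlapped, and by PMAIP1 (26.7 ± 1.87 FPKM). Next stood BAK1 and BCL2L2 (15.2 ± 2.81 and 14.1 ± 0.555 FPKM), overlapping in range, then BID, BBC3, BCL2L11 and BCL2. PMAIP1 thus stood above BCL2L1 in 3-NP cells and below it in control cells.

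Summed over its 4 members, the pro-survival class was higher in FPKM in 3-NP cells but was made up differently. The sums were 199, 219 and 214 FPKM in 3-NP libraries and 161 and 156 FPKM in control libraries. MCL1 made up 86.8% to 89.2% of the sum in 3-NP libraries, against 58.1% and 52% in control libraries, and BCL2L1 made up 6.58% to 8.46% in 3-NP libraries, against 33.1% and 38.5% in control libraries. The ratio of MCL1 to BCL2L1 was 11.2, 13.5 and 10.3 in 3-NP libraries, against 1.76 and 1.35 in the controls.

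The BH3-only sum was 119, 122 and 126 FPKM in 3-NP libraries and 44 and 44.4 FPKM in control libraries, and PMAIP1 made up 72.8% to 75.5% of it in 3-NP libraries, against 63.8% and 57.2% in control libraries. The effector sum, in which BAX and BAK1 moved against each other, was 46.6, 54.3 and 63.5 FPKM in 3-NP libraries and 52.4 and 70.9 FPKM in the controls, so that the groups overlapped. BAX over BAK1 was 1.18, 0.981 and 0.931 in 3-NP libraries, against 2.97 and 3.13 in the controls.

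Ratios between the classes depended on which genes entered them. All pro-survival over all pro-apoptotic transcripts (BH3-only plus effectors) came to 1.2, 1.24 and 1.13 in 3-NP libraries and 1.67 and 1.36 in control libraries. Pro-survival over BH3-only transcripts came to 1.67, 1.79 and 1.7 in 3-NP libraries and 3.67 and 3.52 in the controls. A further ratio, not among those planned, left out MCL1 and PMAIP1, the 2 most abundant members in 3-NP cells. This pro-survival over pro-apoptotic ratio stood at 0.272, 0.293 and 0.299 in 3-NP libraries and 0.988 and 0.835 in control libraries. Without MCL1, the pro-survival member called higher, its numerator is mainly BCL2L1, which was called lower. The fall of this ratio is thus no separate result. The 2 ratios over whole classes were each lower in every 3-NP library than in either control. Of single pairs, PMAIP1 over its partner MCL1 was 0.489, 0.473 and 0.513 in 3-NP libraries, against 0.3 and 0.312 in control libraries, and BCL2L11 over MCL1 was 0.0198 to 0.0257 in 3-NP libraries, against 0.00881 and 0.00818 in control libraries. BAX over BCL2L1 was 1.58, 1.86 and 1.69 in 3-NP libraries and 0.736 and 0.892 in the controls, whereas BAX over BCL2, a commonly quoted ratio, was 51.8, 53.6 and 67.9 in 3-NP libraries and 77.2 and 145 in the controls. The last ratio divides by a transcript with about 100 reads. A ratio within a library does not change when the library is rescaled, and it describes transcripts, not proteins or their binding. No test was made on sums or ratios over members.

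**Figure D3:**
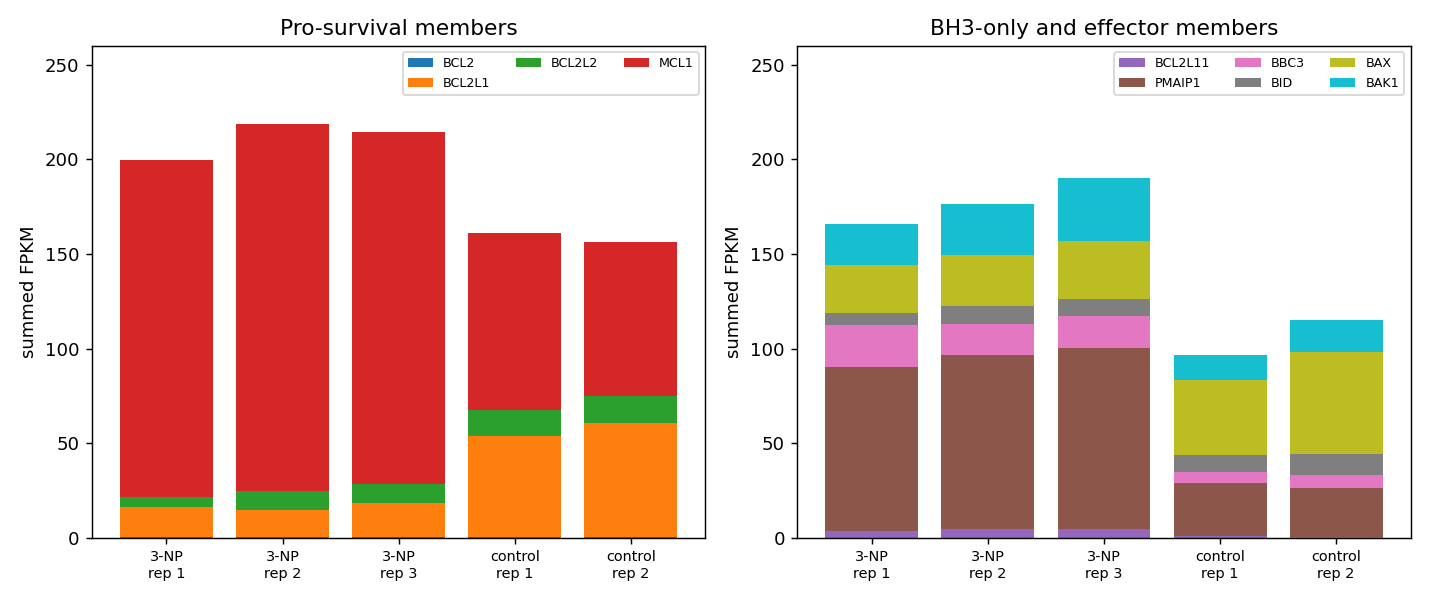
FPKM summed over the 4 pro-survival members (left) and over the 6 BH3-only and effector members (right), as stacked bars from 0 for each of the 3 libraries of 3-NP cells and the 2 of control cells. MCL1 fills 86.8% to 89.2% of the left bars in 3-NP cells, and PMAIP1 is the largest segment of the right bars there.

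Of 13 further members of the family 9 could be tested, of which 2 rose and 1 fell. Over all genes tested 15.5% rose and 25.2% fell. The median log2 fold change was 0.07, against −0.11 over all genes tested. BOK, a BAX-like effector, was at 11.3, 8.66 and 10.7 FPKM in 3-NP libraries and 20.8 and 24 FPKM in control libraries (log2 fold change −1.06 ± 0.16 SE, limma adjusted p = 0.00268). It fell together with BAX, while BAK1 rose. BCL2A1, a pro-survival relative that NOXA also binds, was at 0.729, 2.22 and 1.66 FPKM in 3-NP libraries, listed at 0 in control replicate 1 and at 0.0515 FPKM in control replicate 2 (log2 fold change 1.26 ± 0.26 SE, limma adjusted p = 0.00807). BMF, a BH3-only gene, was at 0.914 to 1.4 FPKM in 3-NP libraries and 0.196 and 0.36 FPKM in control libraries (log2 fold change 0.76 ± 0.16 SE, limma adjusted p = 0.00938). Both passed the filter only through the 3-NP libraries, and both lost the call without control replicate 1 (0.0638 and 0.121) or 2 (0.0517 and 0.0618).

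The other 6 that were tested did not pass. BIK, a BH3-only gene that also entered only through the 3-NP libraries, stood at 0.278, 1.35 and 1.73 FPKM there, against 0.056 and 0.176 FPKM in control libraries, with 3-NP replicate 1 apart (limma adjusted p = 0.0622, and 0.0017 without that library). It passed in 5 of the 11 alternatives in which it was tested, among them median-of-ratios scaling and the replicate block. The mitophagy receptors BNIP3 and BNIP3L, distant relatives that hypoxia induces in many cells, had log2 fold changes of −0.43 and 0.07 (adjusted p = 0.199 and 0.784 by limma). BNIP3 was at 16, 27.4 and 28.8 FPKM in 3-NP libraries, against 30.9 and 32.9 FPKM in control libraries. The BH3-only gene BAD stood at 1.91 to 1.96 FPKM in 3-NP libraries and at 1.5 and 2.13 FPKM in control libraries, with overlapping groups. BCL2L12 and BCL2L13 had log2 fold changes of 0.09 and −0.30 (adjusted p = 0.735 and 0.0933 by limma). BCL2L13 passed in 1 of 14 alternatives, equal FPKM totals, and BNIP3 in 1 of 14, the replicate block. The sign of the difference in BAD, BCL2L12 and BNIP3L changed with the scaling or when 1 library was left out. BCL2L10, BCL2L14, BCL2L15 and HRK were under the filter.

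Transcripts of cytochrome c and of the caspases CASP6 and CASP8 moved in opposite directions. Cytochrome c, CYCS, a gene with many processed copies in the genome, rose, with 86.7, 95 and 105 FPKM in 3-NP libraries and 66.7 and 65.4 FPKM in control libraries (log2 fold change 0.52 ± 0.15 SE, limma adjusted p = 0.0256). CASP6 was at 3.79, 3.81 and 4.29 FPKM in 3-NP libraries and 8.18 and 9.49 FPKM in control libraries (log2 fold change −0.99 ± 0.14 SE, limma adjusted p = 0.0023). CASP8, the caspase of the death receptors that cleaves BID, was at 2.87, 3.17 and 2.62 FPKM in 3-NP libraries and 5.9 and 5.87 FPKM in control libraries (log2 fold change −0.83 ± 0.14 SE, limma adjusted p = 0.00376). Both fell, with no overlap between the groups, which also held in 64.2% of all genes tested. The call of CYCS held in 8 of 14 alternatives. It was lost without control replicate 1 or 2 (limma adjusted p = 0.134 and 0.14), without 3-NP replicate 2 or 3 (0.0682 and 0.0761), with the replicate block (0.0803) and with no filter (0.0508).

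Among 7 inhibitors of apoptosis and their antagonists 6 could be tested, with 1 higher and 2 lower (median −0.58), where 40.8% of all genes were called. BIRC3, which takes part in NF-kB signalling, stood at 19.2, 32.4 and 20.7 FPKM in 3-NP libraries and 4.26 and 3.22 FPKM in control libraries (log2 fold change 2.38 ± 0.24 SE, limma adjusted p = 0.000706). The caspase inhibitor XIAP and the mitotic gene BIRC5 were called lower (−0.68 and −1.23, adjusted p = 0.047 and 0.0401), and both calls were lost after quantile normalization (0.084 and 0.0524), without control replicate 1 (0.297 and 0.103) and without control replicate 2 (0.0589 and 0.172). In all, XIAP kept the call in 5 of 14 alternatives and BIRC5 in 9. None of 4 outer membrane partners of BAX and BAK passed (median −0.17), among them VDAC2, which holds BAK at the membrane (91.5, 86.5 and 109 FPKM in 3-NP libraries, against 74.4 and 80.6 FPKM in control libraries).

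Of 8 genes that act on the stability of MCL1 protein, 1 rose and 1 fell (median −0.09), where 40.8% of all genes were called. The fall was in the deubiquitinase USP13, at 1.15, 1.22 and 1.01 FPKM in 3-NP libraries and 3.33 and 2.87 FPKM in control libraries (log2 fold change −0.95 ± 0.14 SE, limma adjusted p = 0.00263). The rise was in the mitochondrial ubiquitin ligase MARCHF5 (0.44, adjusted p = 0.0335), a call that held in 8 of 14 alternatives. It was lost without control replicate 1 or 2 (0.134 and 0.197), without 3-NP replicate 2 or 3 (0.0914 and 0.0902), with equal FPKM totals (0.0708) and with the replicate block (0.133). The ligases HUWE1, FBXW7 and BTRC and the deubiquitinase USP9X did not pass.

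Transcription factors known to act on members of the family also moved in both directions. MYC fell (log2 fold change −0.97, limma adjusted p = 0.00257). Among those that rose were JUN, a subunit of AP-1 (1.15, adjusted p = 0.00186), STAT3, an activator of MCL1 transcription (0.58, adjusted p = 0.0193), and DDIT3, which encodes the stress factor CHOP (2.02, adjusted p = 0.0202), as log2 fold changes. DDIT3 was at 17.2, 59.4 and 66.9 FPKM in 3-NP libraries and 7.88 and 11.1 FPKM in control libraries, with 3-NP replicate 1 nearest the controls. Calls were lost without control replicate 1 or 2 for STAT3 (0.0991 and 0.12) and DDIT3 (0.111 and 0.0595), and with no filter for DDIT3 (0.0995). FOXO3, an activator of BCL2L11 transcription, and ATF4 did not pass (adjusted p = 0.203 and 0.442 by limma).

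**Figure D4:**
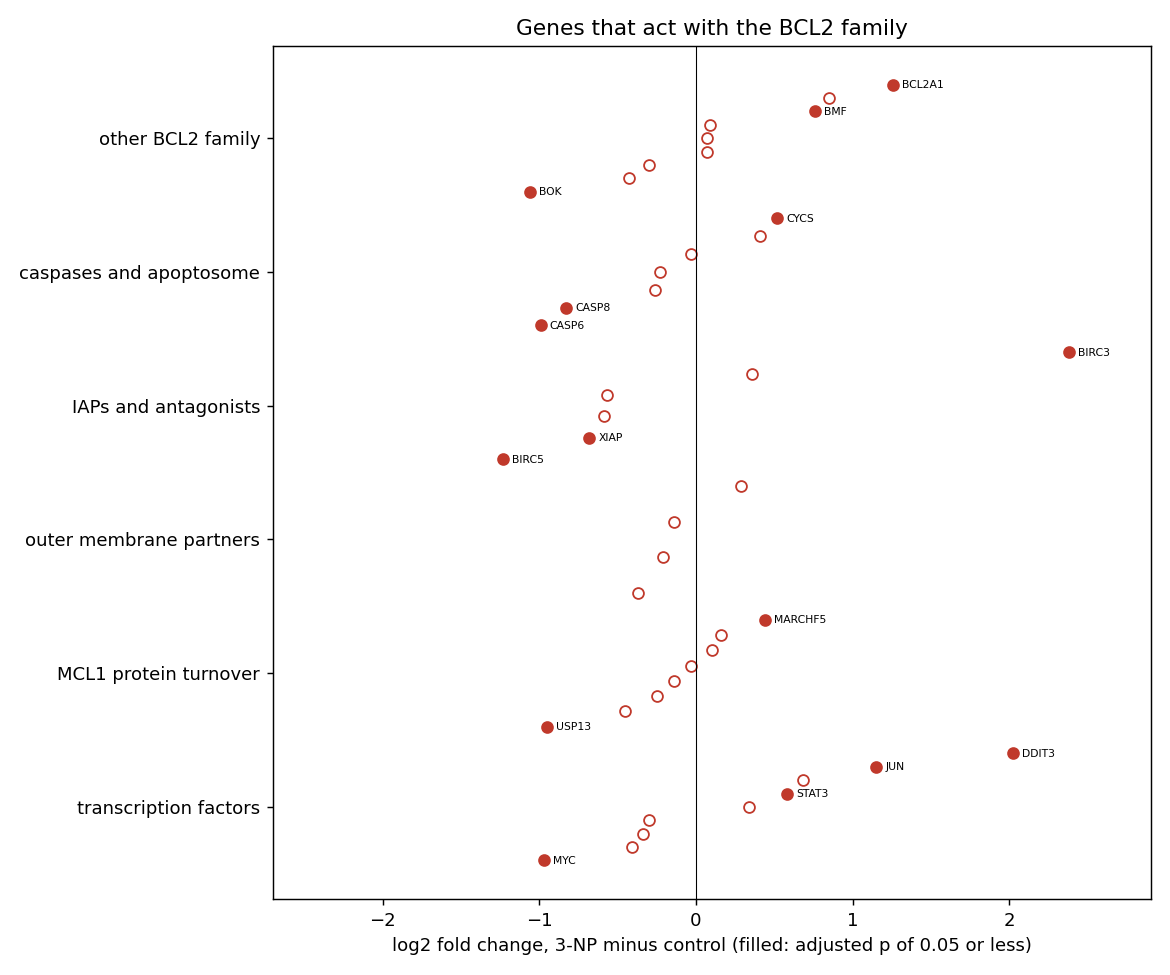
Fitted log2 fold change (horizontal axis, 3-NP minus control) of tested genes in 6 lists of genes that act with the family. Filled points passed an adjusted p of 0.05 and those with the smallest p in each direction are named; each list but the outer membrane partners holds calls in both directions, from BIRC5 at −1.23 to BIRC3 at 2.38.

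The genes whose profiles came nearest to a called member were sought among the 10202 protein-coding genes that averaged at least 1 FPKM, by the Euclidean distance of centred log2(FPKM + 1) over the 5 libraries. For PMAIP1 these were TPPP, MT1A and NRIP3 (distance 0.107 to 0.118), and for MCL1 they were ZNF697, CXorf38 and SNAP25 (0.0643 to 0.104). The nearest to BCL2L11 were ID4, S1PR3 and ARG2 (0.0407 to 0.117), and to BBC3 SEMA7A, RHOB and THEMIS2 (0.0915 to 0.0983). RHOB, a small GTPase, had 971, 722 and 771 FPKM in 3-NP libraries and 262 and 318 FPKM in control libraries, with 3-NP replicate 1 highest as in BBC3. CCDC102A, PHF23 and C1orf216 came nearest to BCL2L1 (0.126 to 0.171), UBE2L6, RHBDD3 and VPS51 to BAX (0.101 to 0.113), and NOP53, DPM3 and RPS20 to BAK1 (0.0668 to 0.0821). With 5 libraries in 2 groups such distances mainly match the size of the group difference.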

How the data were processed

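RNA of 5 COV434 libraries was sequenced, 3 of cells given 3-NP and 2 of control cells. Per the labels' protocols, TRIzol served for RNA extraction and a stranded mRNA kit for the libraries. Per the submitters' processing notes, bcl2fastq 2.17, Trimmomatic 0.39, HISAT2 2.1 and GRCh38 were used. For the read counter, its annotation and its strand setting, the entry is: not given in the sources used here. The deposited values, whose unit the files do not name, were read as FPKM computed by the authors: value times GENCODE 29 exon length gave whole multiples of 1 step per library within 0.05 read for 93.1% to 93.3% of values above 0. The whole-read step also gave the depths of 17838000 to 18883000 reads. They limit counting precision only.

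The log2(FPKM + 1) values of genes reaching 1 FPKM in 2 or more libraries were fitted with limma 3.58.1 in R 4.3.3 (empirical Bayes with trend), with treatment as the single factor over the 5 libraries and 3 residual degrees of freedom. Benjamini-Hochberg adjustment ran over all 11858 genes. On this scale a low gene's change is understated. The fit was tested on simulated data. No 2 libraries were identical.

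The members and all gene lists were chosen with earlier results of these data known. Named were all members, every tested gene of the further family list, up to 3 called genes with the smallest p per direction of each other list, and the 3 nearest profiles of each called member. VDAC2, RHOB and the genes named as not passing were chosen after their values were seen. The cutoff for the share of windows with several E-boxes was taken from the BAX count. The ratio without MCL1 and PMAIP1, those of MCL1 and BAX to BCL2L1 and that of BAX to BAK1 were not among those planned. Some genes and 1 list are not reported here. In all 14 alternatives were tried: 3 other scalings, a length trend removed, 2 other filters, a pseudocount of 0.1, voom on reads, the replicate block and each library left out.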

Additional observations from a re-analysis of the deposited data

How the results depend on the processing

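Over the 14 alternatives, MCL1, PMAIP1, BBC3, BCL2L11 and BCL2L1 kept their direction and their call in every one, and BID passed in none. The highest adjusted p was 0.0249 for MCL1, 0.00629 for PMAIP1, 0.0173 for BBC3, 0.0104 for BCL2L11 and 0.00713 for BCL2L1. With no filter on low values BAX and BAK1 were no longer called (log2 fold changes −0.72 and 0.79, adjusted p = 0.054 and 0.0749), where 28943 genes were tested. Leaving out 1 library gave BAX −0.94 to −0.50 and BAK1 0.61 to 0.97. BCL2L2 became called with equal FPKM totals (−0.86), a stricter filter (−0.76), voom (−0.84) and the replicate block (−0.89, limma adjusted p = 0.00654). Its log2 fold change ranged from −0.90 to −0.49 with 1 library left out. No control shares its number with 3-NP replicate 3, so the block sets that library aside. Fold changes with the block therefore equal those without 3-NP replicate 3 (BCL2L2 −0.89 in both). The block also leaves fewer residual degrees of freedom than the main fit. The number of members called was 5 to 8, and the share of all genes called also moved with the setting. With no filter 5 members and 14% of all genes were called, and without 3-NP replicate 1 these were 8 members and 45%. Over all genes 4833 were called, and 1814 to 5254 with 1 library left out, 1814 without control replicate 1 and 2088 without control replicate 2. Lower genes made up 61.9% of calls, against 52% after quantile normalization, 51.7% with median-of-ratios scaling and 50% with the length trend removed. The median of all tested genes was −0.11, and −0.01 with median-of-ratios scaling. Whether replicate numbers pair the libraries cannot be told, because the deviations of 2 controls from their mean mirror each other. Deviations of same-numbered libraries correlated across genes at 0.157 and −0.351. The replicate block called 4347 genes. The log2 ratio of pro-survival to pro-apoptotic sums differed by −0.34 between groups, and by −0.49 to −0.19 with 1 library left out. A lone control is assumed to vary like the other group. BCL2, with 78 to 112 reads per library, could show only large differences.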

Other observations

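Transcripts that overlap the family's genes were also measured. ABALON, a noncoding transcript antisense to BCL2L1 that shares exon positions with it, was listed at 0.0835, 0.338 and 0.335 FPKM in 3-NP libraries and at 0.589 and 0.825 FPKM in control libraries, so its values were lower where those of BCL2L1 were lower, all of them under the filter. The readthrough gene BCL2L2-PABPN1 was at or under 0.0346 FPKM in 3-NP libraries and at 0.0689 and 0.0362 FPKM in control libraries. ADAMTSL4-AS1, which overlaps MCL1 exons on the same strand, was at 0.123 to 0.182 FPKM in 3-NP libraries and 0.0203 and 0.0641 FPKM in control libraries, small beside MCL1 itself.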
